A study of Mus musculus with 8 samples.

Results

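The level of 10 genes known from megakaryocytes and platelets was followed in mouse leukemic cells with and without IOX5. The 10 genes, *Vwf*, *Ppbp*, *Pf4*, *Itga2b*, *Itgb3*, *Gp9*, *Gp1bb*, *Gata1*, *Nfe2* and *Fli1*, were found by matching the Ensembl identifiers of the 54838 genes listed to GENCODE M21 symbols. They were selected on results of the IOX5 and DMSO comparison in these same samples, so their differences between the groups are given as a description and not as a test. The RNA-seq series held 8 samples of *iMLL-AF9* cells from mouse bone marrow. Of these, 4 were treated with DMSO, the solvent control, and 4 with IOX5, an inhibitor of the oxygen-sensing prolyl hydroxylases (PHDs). Each group was numbered 1 to 4. Both groups were labelled as leukaemic stem cells of WT genotype, and the methods describe LSK-derived cells on a C57BL/6 background in which doxycycline switches on the *MLL-AF9* fusion oncogene. The DMSO samples therefore also carried the fusion. The methods give an age of 8 to 12 weeks for the mice of the in vivo experiments in general, without naming the mice behind these samples. The dose, the time of treatment and what a replicate number stands for are not given in the sources used here, nor is whether the samples came from separate mice or cultures, so the p-values measure only the spread between these samples.

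Megakaryocytes are the large bone marrow cells that shed platelets. They load α-granules with von Willebrand factor and with platelet chemokines, and they display integrin αIIbβ3 and the glycoprotein Ib-IX-V complex, with which platelets bind fibrinogen and von Willebrand factor. The program is run by GATA1, with NF-E2 acting late and the ETS factor FLI1 alongside. Several of these genes are also used outside the lineage: *Gata1* in erythroid cells, mast cells, basophils and eosinophils, *Itga2b* in early progenitors, *Fli1* widely in blood cells, and *Vwf* in endothelium.

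The reads on genes numbered 12343770 to 14116054 in the DMSO samples and 11351507 to 12708888 in the IOX5 samples, and 12405 genes passed edgeR's filter on low counts. Levels are given as CPM, the counts scaled to a common library size with TMM factors, and differences as log2 of IOX5 over DMSO with the standard error (SE) of edgeR's quasi-likelihood fit. A gene was called at a Benjamini-Hochberg adjusted p under 0.05 over all genes tested. Samples with the same replicate number deviated together from their group means, and where a fit with the number as a block made another call, its result is added. Of 10 HIF target genes listed as a check of the treatment, 5 were called higher with IOX5 and 0 lower. Over all genes tested 0.774% were called higher.

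Sequence upstream of the genes was available from RefSeq (GRCm38.p6) as windows of 300 bases, from 250 before to 50 after the start, for 6 of the 10 genes: *Ppbp*, *Pf4*, *Itga2b*, *Gp9*, *Gp1bb* and *Gata1*. The windows of the 4 genes that hold the letters GGAAGT on either strand, a core of the sites bound by ETS factors such as FLI1, are printed here 5′ to 3′ on the gene's strand. Capitals mark these letters or, in *Ppbp*, *Pf4* and *Itga2b*, their reverse complement. They show how near the letters lie to the RefSeq start in *Ppbp*, *Pf4* and *Itga2b*, genes whose levels are compared below.
Ppbp, chr5:90768268-90768567, plus strand: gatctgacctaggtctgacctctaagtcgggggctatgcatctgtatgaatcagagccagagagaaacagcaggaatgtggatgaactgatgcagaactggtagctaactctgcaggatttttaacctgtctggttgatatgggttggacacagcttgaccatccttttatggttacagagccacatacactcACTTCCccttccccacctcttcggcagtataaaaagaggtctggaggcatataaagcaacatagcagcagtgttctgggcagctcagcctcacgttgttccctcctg
Pf4, chr5:90772185-90772484, plus strand: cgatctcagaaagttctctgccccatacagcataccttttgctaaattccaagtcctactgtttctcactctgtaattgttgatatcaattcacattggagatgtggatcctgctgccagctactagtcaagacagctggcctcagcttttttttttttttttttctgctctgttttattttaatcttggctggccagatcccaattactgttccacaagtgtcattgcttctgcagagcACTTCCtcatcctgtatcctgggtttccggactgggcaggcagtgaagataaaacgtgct
Itga2b, chr11:102469834-102470133, minus strand: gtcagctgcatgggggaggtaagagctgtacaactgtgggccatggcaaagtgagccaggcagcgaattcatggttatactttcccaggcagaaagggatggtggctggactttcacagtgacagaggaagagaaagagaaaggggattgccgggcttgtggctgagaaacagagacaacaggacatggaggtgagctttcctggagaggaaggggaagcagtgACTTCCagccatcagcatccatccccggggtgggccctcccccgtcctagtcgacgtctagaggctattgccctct
Gp9, chr6:87777820-87778119, plus strand: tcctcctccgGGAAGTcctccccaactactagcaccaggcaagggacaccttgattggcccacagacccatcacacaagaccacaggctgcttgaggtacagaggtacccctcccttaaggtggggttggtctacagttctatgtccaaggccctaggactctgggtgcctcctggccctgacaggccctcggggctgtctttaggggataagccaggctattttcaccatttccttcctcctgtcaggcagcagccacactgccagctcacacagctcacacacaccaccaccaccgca
Counted from the RefSeq start, the letters began at position -57 in *Ppbp*, -10 in *Pf4*, -26 in *Itga2b* and -240 in *Gp9*. The GENCODE coordinates of *Itga2b* reach further, to 102470122, so its letters lie inside the gene as placed there. The window of *Gata1* lies wholly inside its GENCODE gene. On either strand, 23.8% of the 32851 windows of this length in the RefSeq table held them. The GATA motif, the letters GATA with A or T before and A or G after, stood in 2 of the 6 windows, at position 37 in *Pf4* and -22 in *Gp1bb*, against 29.8% of all windows. The NF-E2 letters TGAGTCA stood in 0 of the 6 and in 5.202% of all windows, and the RUNX letters TGTGGT in 1 of the 6 (*Gp9*) and in 16.8%. The hypoxia-response core, CGTG with A or G before it, stood in 2 of the 6, at position 34 in *Ppbp* and 44 in *Pf4*, and in 43.8% of all windows. In the 6 windows no match of 1 motif overlapped a match of another. A match of letters is a description and not a bound site.

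*Ppbp* and *Pf4* are also neighbours in the genome. *Ppbp* lies on GRCm38 chromosome 5 from 90768518 to 90770063 and *Pf4* from 90772435 to 90773383, both on the plus strand and 2371 bases apart. The chemokine genes on either side were nearly silent, with 0 reads for *Cxcl5*, 38 for *Cxcl3* and 4 for *Cxcl15* over the 8 samples. *Rassf6*, next to *Cxcl5*, was not called (0.847 to 1.38 CPM with DMSO, 1.07 to 2.11 CPM with IOX5, edgeR adjusted p = 0.37).

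Per kilobase of exon, *Nfe2* and *Fli1* stood highest in DMSO-treated cells. *Nfe2* had 69.7 ± 10.7 CPM per kilobase (SD, n = 4) and *Fli1* 24.7 ± 1.80 (SD, n = 4), and the ranges of these genes overlapped neither each other nor the next gene. *Itga2b* followed with 7.85 ± 3.73 CPM per kilobase (SD, n = 4), near the median of 7.11 over the genes tested. Below it stood *Itgb3* at 3.96 ± 1.96, *Gata1* at 3.49 ± 1.499, *Pf4* at 2.48 ± 1.14, *Ppbp* at 1.72 ± 0.865, *Gp9* at 0.825 ± 0.207 and *Vwf* at 0.596 ± 0.169 CPM per kilobase (SD, n = 4 each). From *Itga2b* down to *Vwf*, each gene's range over the DMSO samples overlapped that of the next. Compared within the same samples, *Itga2b* lay above *Itgb3*, *Gata1* above *Pf4* and *Pf4* above *Ppbp* in 4 of 4, while *Itgb3* lay above *Gata1*, *Ppbp* above *Gp9* and *Gp9* above *Vwf* in 3 of 4.

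**Figure D1:**
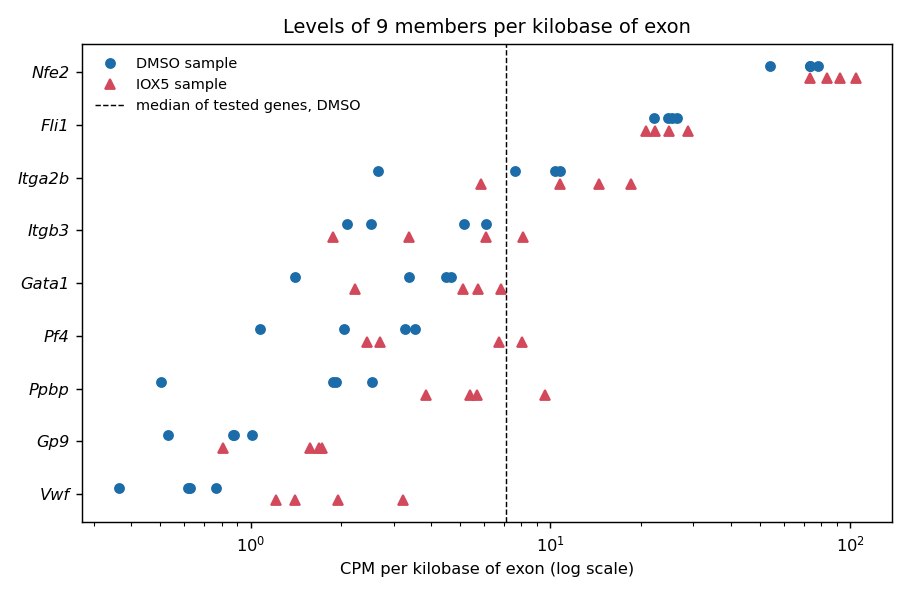
Level of 9 of the 10 genes in CPM per kilobase of exon, on a log scale, with 1 circle per DMSO sample and 1 triangle per IOX5 sample. *Nfe2* and *Fli1* lie right of the dashed line, the median of 7.11 over the genes tested in DMSO samples, and all *Vwf* and *Gp9* samples lie left of it.

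*Gp1bb*, which encodes a subunit of the von Willebrand factor receptor (ENSMUSG00000050761, GRCm38 chromosome 16, 18620317 to 18622403, minus strand), had 0 reads in all 8 samples and was not tested. A count of 0 allows up to 3 reads, or between 0.212 and 0.266 CPM per sample, for counting error only. Of its 2087 exon bases, 1902 also belong to exons of *Sept5* and 867 to exons of *Gm49601*, both on the same strand, and reads that fit more than 1 gene are set aside by the default counting of HTSeq. *Sept5* itself had between 1 and 13 reads per sample. What part the overlap has in the zeros was not tested. No other member shares exon bases with an annotated gene on either strand.

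Of the 9 genes tested, 8 had a positive log2 fold change, with a median of 0.67 against 0.02 over all genes tested. *Vwf* was the 1 member called higher with IOX5 and none was called lower, where 0.774% of all genes tested were called higher. With the replicate block, *Vwf*, *Ppbp*, *Pf4*, *Itga2b*, *Gata1* and *Nfe2* were called higher, 6 of 9, where 11.2% of all genes were. Within the replicate numbers, the IOX5 sample had the higher level in all 4 pairs for 7 of the 9 genes, against 21.3% of all genes tested, and in 2 of the 9 every IOX5 sample lay above every DMSO sample, against 5.98%. These counts are on the contrast with which the genes were chosen, and nothing is read from them.

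**Figure D2:**
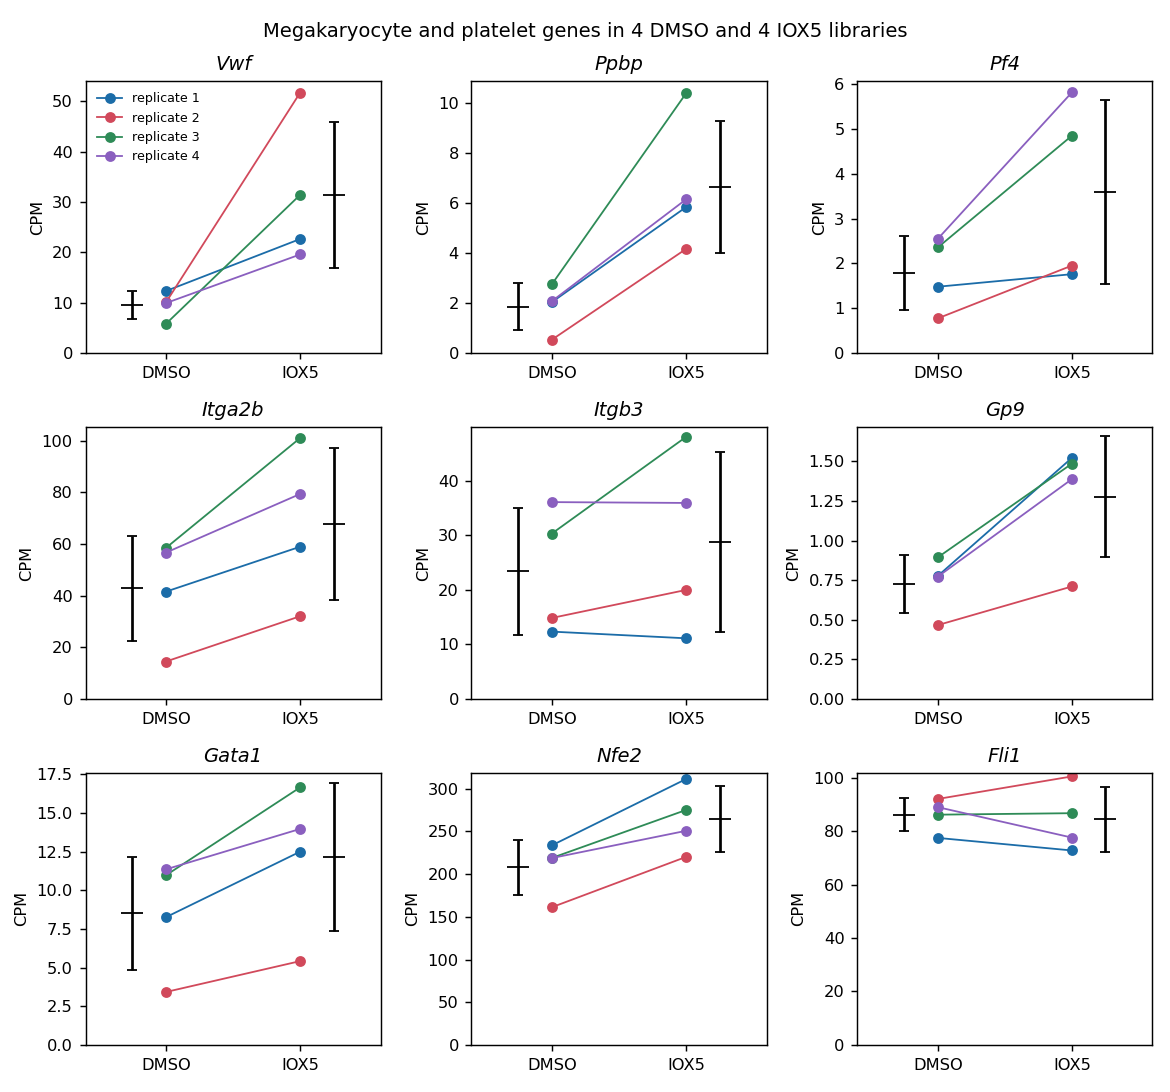
CPM of 9 genes in each DMSO and IOX5 sample, with a line joining the samples of 1 replicate number and, beside them, the mean and SD of each group (n = 4). The IOX5 samples of *Vwf* and *Ppbp* lie above all DMSO samples, the lines of *Itga2b*, *Gata1* and *Nfe2* all run upward from different starting levels, and those of *Fli1* cross.

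*Vwf* encodes von Willebrand factor, the large glycoprotein that tethers platelets to damaged vessel wall (ENSMUSG00000001930, GRCm38 chromosome 6, 125546774 to 125686679, plus strand). It had 12.4, 10.1, 5.85 and 9.96 CPM in DMSO replicates 1 to 4 and 22.7, 51.7, 31.4 and 19.6 CPM in IOX5 replicates 1 to 4. All 4 IOX5 samples lay above all 4 DMSO samples, and the lowest IOX5 sample was 1.59 times the highest DMSO sample. The log2 fold change was 1.71 (SE 0.33), a 3.27-fold higher level, and within replicate numbers 1 to 4 the log2 differences were 0.87, 2.34, 2.39 and 0.97. The size depended on IOX5 replicate 2, the highest sample, without which the log2 fold change was 1.36, and over all single samples left out it ran from 1.36 to 1.88. Without the block, the call was lost without any 1 of the 4 DMSO samples or without IOX5 replicate 1, 2 or 3, and was made without IOX5 replicate 4. The fits that lost it called between 0 and 53 of all genes tested higher, against 96 with all samples. *Vwf* was also called with the block (edgeR adjusted p = 0.00035), with the block and any 1 number left out, and by DESeq2 (adjusted p = 1.3e-05).

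*Vwf* is a marker of endothelium as well as of platelets, and the endothelial genes were measured beside it. Of 13 endothelial markers, *Tek*, *Emcn*, *Cldn5* and *Sox17* had 0 reads in all samples, and *Cdh5* did not exceed 0.52 CPM and *Kdr* 0.65 CPM. In all, 8 of the 13 stayed under 1 CPM in every sample. The 5 that were tested all had a positive log2 fold change. With the block 3 of these were called higher, where 11.2% of all genes were, and 0 without it. The part of these genes in the level of *Vwf* was not tested. *Pecam1*, shared with platelets and leukocytes, had the highest level of the list with 82.6 to 162.9 CPM under DMSO and 130.6 to 217.7 CPM under IOX5.

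The macrophage markers *Adgre1*, which encodes F4/80, and *Mrc1*, which encodes the mannose receptor, shared with *Vwf* the sample with the highest level. In IOX5 replicate 2 they had 170.5 and 63.7 CPM, against 65.7 to 87.2 and 16.0 to 36.1 CPM in the other IOX5 samples. The summed level of the 13 macrophage markers was 1597 CPM in that sample, 843 to 946 CPM in the other IOX5 samples and 733 to 911 CPM in the DMSO samples. Among the DMSO samples the sum was highest in replicate 2, and *Vwf* in replicate 1. In replicate 3, where the log2 difference of *Vwf* was largest (2.39), the sum was 733 CPM with DMSO and 946 CPM with IOX5. Only *C1qa* of this list stayed under 1 CPM in every sample. The part of this difference in the level of *Vwf* was not tested, and in bulk RNA a change in the share of a cell type and a change in RNA per cell cannot be told apart.

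*Ppbp* encodes pro-platelet basic protein, the precursor of the neutrophil-attracting chemokine CXCL7 (ENSMUSG00000029372). Its level was 2.05, 0.544, 2.76 and 2.08 CPM in DMSO replicates 1 to 4 and 5.85, 4.17, 10.4 and 6.16 CPM in IOX5 replicates 1 to 4. The groups did not overlap. The log2 fold change was 1.83 (SE 0.45), with differences of 1.44, 2.62, 1.85 and 1.49 within replicate numbers 1 to 4. The values rest on few reads, between 7 and 34 per DMSO sample and between 47 and 133 per IOX5 sample. By edgeR *Ppbp* was called with the replicate block and not without it.

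*Pf4* encodes platelet factor 4, the heparin-binding chemokine CXCL4 of the same granules (ENSMUSG00000029373). It had 1.48, 0.778, 2.36 and 2.55 CPM in DMSO replicates 1 to 4 and 1.76, 1.95, 4.85 and 5.81 CPM in IOX5 replicates 1 to 4, again on few reads, 10 to 67 per sample. Here the groups overlapped, since IOX5 replicates 1 and 2 lay below DMSO replicates 3 and 4, but each IOX5 sample was above the DMSO sample of its own number. The log2 fold change was 1.003 (SE 0.49), and the block lowered the SE to 0.22 and brought the call.

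*Itga2b* and *Itgb3* encode the α and β subunits of the platelet fibrinogen receptor and lie apart on chromosome 11. *Itga2b* (ENSMUSG00000034664, 102453297 to 102470122, minus strand) had 41.6, 14.5, 58.5 and 56.7 CPM in DMSO replicates 1 to 4 and 58.9, 32.1, 101.0 and 79.4 CPM in IOX5 replicates 1 to 4. Replicate 2 was lowest in both groups and replicate 3 highest in both. The log2 fold change was 0.67 with an SE of 0.44 without the block and 0.70 with an SE of 0.10 with it, and *Itga2b* was called only with the block. *Itgb3* (ENSMUSG00000020689, 104608000 to 104670476, plus strand) had 12.4, 14.9, 30.3 and 36.1 CPM in DMSO replicates 1 to 4 and 11.1, 19.98, 48.0 and 35.9 CPM in IOX5 replicates 1 to 4. Its log2 fold change was 0.30 (SE 0.48), it was higher with IOX5 in 2 of 4 pairs, and it was called by neither fit. Without IOX5 replicate 3 its log2 fold change was -0.07.

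*Gp9* encodes glycoprotein IX, a further subunit of the von Willebrand factor receptor (ENSMUSG00000030054). It was close to the limit of the counting, with 6 to 11 reads per DMSO sample and 8 to 19 per IOX5 sample, or 0.467 to 0.894 and 0.710 to 1.52 CPM. Its log2 fold change was 0.81 (SE 0.33), it was higher with IOX5 in 4 of 4 pairs, and it was called by neither fit.

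Of the transcription factor genes, *Gata1* (ENSMUSG00000031162) had 8.26, 3.42, 10.97 and 11.4 CPM in DMSO replicates 1 to 4 and 12.5, 5.42, 16.6 and 14.0 CPM in IOX5 replicates 1 to 4, so that replicate 2 was again lowest in both groups. The log2 fold change was 0.51 (SE 0.41) without the block and 0.52 (SE 0.12) with it. *Nfe2*, which encodes the p45 subunit of NF-E2 (ENSMUSG00000058794), had 161.3 to 233.8 CPM with DMSO and 220.2 to 311.5 CPM with IOX5, with a log2 fold change of 0.34 (SE 0.14) and a higher level in 4 of 4 pairs. Both were called only with the block. *Fli1* (ENSMUSG00000016087) had 77.5 to 92.1 CPM with DMSO and 72.8 to 100.5 CPM with IOX5, a log2 fold change of -0.03 (SE 0.11) with a 95% interval from -0.27 to 0.21, and a higher level in 2 of 4 pairs.

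**Figure D3:**
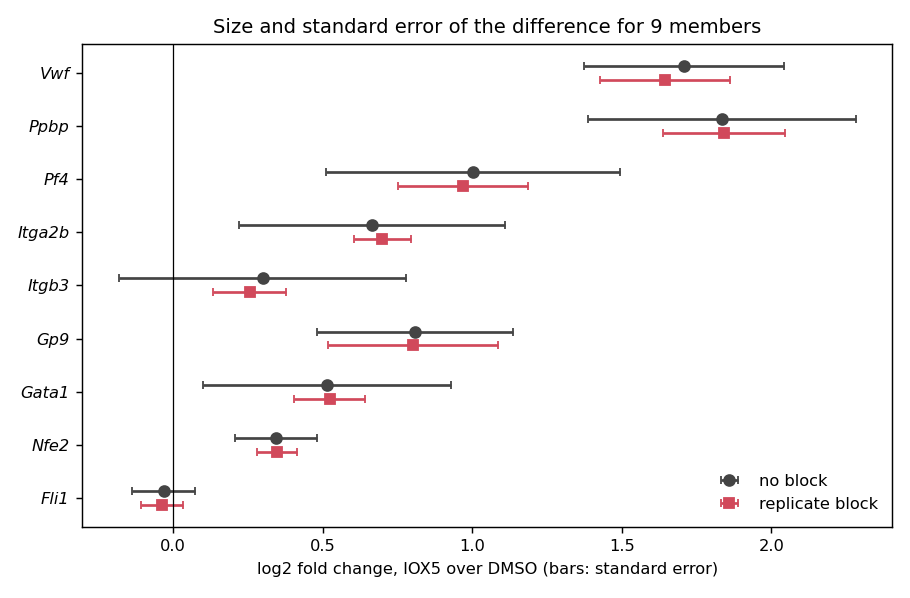
Log2 fold change of IOX5 over DMSO for 9 genes with its standard error, from the fit without the block (circles) and with the replicate block (squares). The fold changes hardly move, from 1.71 to 1.64 for *Vwf* and from 0.67 to 0.70 for *Itga2b*, while the standard error of *Itga2b* narrows from 0.44 to 0.10.

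The replicate number was tested apart from the treatment, with an edgeR quasi-likelihood F-test of the number in a model with both. The numbers are balanced over the groups. The genes were chosen on the comparison of IOX5 with DMSO, but with earlier results of these data known, so the count is a description. The test of the number called 6 of the 9 genes, 66.7%, where 22.5% of all genes tested were called. The adjusted p was 2.7e-06 for *Itga2b*, 1.1e-05 for *Itgb3*, 5.7e-05 for *Gata1*, 0.0028 for *Pf4*, 0.0056 for *Nfe2* and 0.0085 for *Ppbp*. *Fli1* (0.079), *Vwf* (0.16) and *Gp9* (0.30) were not called. Leaving out 1 number at a time gave between 4 and 7 of the 9. A high share was not particular to these genes. Among tested markers, 11 of 11 erythroid, 8 of 10 progenitor and 8 of 12 macrophage genes were called by number. So were 3 of 5 endothelial and 2 of 4 eosinophil genes, and 2 of the 10 HIF target genes.

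The order of the numbers was not the same in all 6 genes. Averaged over the 2 groups on the log2 scale, replicate 2 was lowest for *Ppbp*, *Pf4*, *Itga2b*, *Gata1* and *Nfe2*, and replicate 1 for *Itgb3*. Replicates 3 and 4 together had 2.58 times the mean CPM of replicates 1 and 2 for *Itgb3*, 2.60 times for *Pf4*, 2.01 times for *Itga2b*, 1.79 times for *Gata1* and 1.70 times for *Ppbp*, but 1.04 times for *Nfe2* and 0.69 times for *Vwf*. The distance between the highest and the lowest number was 1.82 on the log2 scale for *Itga2b*, 1.69 for *Itgb3* and 1.61 for *Gata1*, larger than the IOX5 difference of each of these genes.

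**Figure D4:**
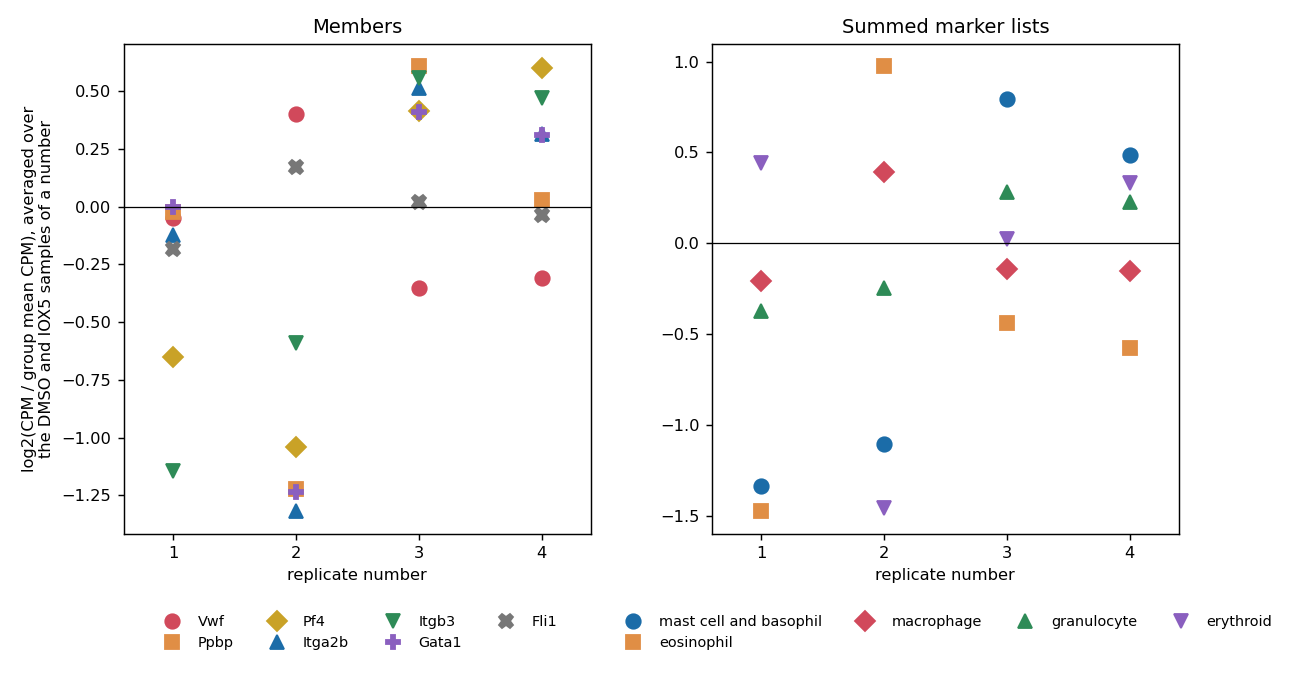
Deviation of each replicate number from its group mean, as log2 of CPM over the group's mean CPM averaged over the DMSO and the IOX5 sample, for 7 genes (left) and for the summed CPM of 5 lists of cell type markers (right). *Itga2b*, *Gata1* and *Ppbp* lie lowest in replicate 2 and *Itgb3* in replicate 1, *Vwf* lies highest in replicate 2, and mast cell and basophil markers are lower in replicates 1 and 2 than in 3 and 4.

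Within the groups the genes fell into different patterns. After each group's mean was taken out, *Itga2b* and *Gata1* had a Pearson correlation of 0.985 over the 8 samples, *Itga2b* and *Ppbp* 0.954, *Gata1* and *Gp9* 0.939, and the neighbours *Ppbp* and *Pf4* 0.752. *Vwf* had negative values with *Itga2b* (-0.497), *Gata1* (-0.572) and *Gp9* (-0.703), and *Fli1* with *Nfe2* (-0.738). These correlations are descriptions, since the samples share libraries between all genes and pairs of samples share a number.

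For 8 of the genes tested, the most alike of the 12045 other genes with a mean of at least 1 CPM was found by the correlation of log2 CPM over the 8 samples. These were *Spns3* for *Gata1* (r = 0.997), *Pxmp2* for *Vwf* (0.997), *Wbp1* for *Ppbp* (0.996), *Mettl6* for *Gp9* (0.991), *Gem* for *Itgb3* (0.986), *Sirt3* for *Pf4* (0.985), *Slc30a9* for *Nfe2* (0.984) and *Parp14* for *Fli1* (0.974). The best of so many genes over 8 samples is high by selection.

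Of 77 other megakaryocyte and platelet genes in 5 lists, 62 had enough reads to be tested and 12 stayed under 1 CPM in every sample. The platelet β-tubulin gene *Tubb1* had at most 0.178 CPM. *Mpig6b* and *Mmrn1* had 0 reads in all 8 samples. Among the others were the collagen receptor genes *Gp6* and *Itga2*, the podoplanin receptor gene *Clec1b*, *Esam*, *Treml1*, the thromboxane receptor gene *Tbxa2r*, *Adra2a* and *Alox12*. Of 12 listed stem and progenitor genes of the labelled cells, 10 were tested and 1 stayed under 1 CPM in every sample. *Hoxa9* had 220 to 293 CPM, *Myb* 259 to 493 CPM and *Kit* 44.0 to 133.2 CPM, while *Slamf1* did not exceed 1.12 CPM. Of these, *Hoxa9*, *Kit* and *Slamf1* were named outside the naming rule given below.

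Of the 62 other megakaryocyte and platelet genes tested, edgeR called 0 in either direction without the block. Over all 12405 genes tested it called 96 higher and 155 lower. At an unadjusted p under 0.05, 8 of the 62 were higher and 1 lower, against 1114 higher and 1392 lower of the 12405. DESeq2 called 5 higher and 0 lower, against 433 and 544 over all genes. With the replicate block edgeR called 21 higher, where 11.2% of all genes were, and 1 lower, where 9.43% of all genes were. These 2 shares also apply to the counts with the block in every list below. The median log2 fold change was 0.14, against 0.02 over all genes tested. By replicate number 37 of the 62 were called, 59.7%, against 22.5% of all genes.

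Among 7 tested adhesion and activation receptor genes, 2 rose with the block and 0 without it. *Cd9*, a platelet tetraspanin whose gene is the nearest protein-coding one upstream of *Vwf* at a distance of 51982 bases, went from 32.1 to 61.0 CPM with DMSO to 71.2 to 120.1 CPM with IOX5 with no overlap (log2 fold change 0.91, SE 0.22, edgeR adjusted p = 0.070 without and 0.0024 with the block). *F11r*, a junctional adhesion molecule, was not called by either fit (0.32, SE 0.17, adjusted p = 0.34 and 0.092 by edgeR). *Itgb1*, the most abundant gene of the list, had 429 to 465 CPM with DMSO and 432 to 458 CPM with IOX5. The scavenger receptor gene *Cd36*, named after its values were seen, was too low to be tested, at 0 to 0.311 CPM with DMSO and 0.0867 to 2.75 CPM with IOX5.

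Among 8 tested receptors for platelet agonists, 4 rose with the block. *Ptgir*, the prostacyclin receptor gene, had 5.51 to 11.8 CPM with DMSO and 7.77 to 18.5 CPM with IOX5 (log2 fold change 0.75, SE 0.30, edgeR adjusted p = 0.21 without and 0.0013 with the block). *F2r*, which encodes the thrombin receptor PAR1 and is the most abundant of the list, had 16.1, 12.4, 53.1 and 47.3 CPM in DMSO replicates 1 to 4 and 22.8, 18.0, 103.9 and 71.2 CPM in IOX5 replicates 1 to 4. Replicates 3 and 4 were high in both groups, and the adjusted p of the number was 3.0e-08 by edgeR. *F2rl3*, a further thrombin receptor gene, was not called by either fit (0.30, SE 0.25).

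Of 13 tested granule cargo and release genes, 6 rose with the block. *Srgn*, the granule proteoglycan serglycin and the most abundant gene of this list, had 693 to 944 CPM with DMSO and 894 to 1265 CPM with IOX5 (log2 fold change 0.43, SE 0.13, edgeR adjusted p = 0.12 without and 0.00074 with the block). *Vamp8*, the vesicle SNARE of granule release, had 111 to 144 CPM and 141 to 199 CPM (0.37, SE 0.12, adjusted p = 0.125 without and 0.0019 with the block by edgeR).

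Of 17 tested genes for signalling, cytoskeleton and eicosanoid enzymes, 5 rose with the block. The thromboxane synthase gene *Tbxas1* had 22.3 to 36.4 CPM with DMSO and 37.2 to 61.6 CPM with IOX5, with no overlap (log2 fold change 0.74, SE 0.20, edgeR adjusted p = 0.089 without and 0.00022 with the block). *Btk*, a tyrosine kinase gene, had 138 to 145 CPM with DMSO and 156 to 163 CPM with IOX5, a small difference without overlap (0.19, SE 0.05, edgeR adjusted p = 0.079 without and 0.045 with the block). The call of *Btk* with the block was lost whichever replicate number was left out. *Flna*, the filamin gene with the highest level, had a log2 fold change of 0.06 (SE 0.14), and -0.10 without IOX5 replicate 2.

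Of 17 tested transcription factors and cofactors, 4 rose and 1 fell with the block. *Erg*, an ETS factor gene related to *Fli1*, had 52.9, 30.9, 52.0 and 51.8 CPM in DMSO replicates 1 to 4 and 74.2, 40.7, 72.1 and 70.9 CPM in IOX5 replicates 1 to 4 (log2 fold change 0.46, SE 0.22, edgeR adjusted p = 0.29 without and 0.00065 with the block). As for *Itga2b* and *Gata1*, replicate 2 was the lowest sample of both groups. *Srf*, the serum response factor gene, fell by 0.23 on the log2 scale with the block (edgeR adjusted p = 0.018, and 0.23 without the block). *Lmo2*, the bridging cofactor gene with the highest level, had a log2 fold change of -0.02 (SE 0.10). *Tal1* and *Gata2*, which encode partners of GATA1 and LMO2, were named after their values were seen. Of the DMSO samples, replicate 2 was lowest for both, as for *Itga2b*. They had 3.97 and 37.2 CPM there, against 22.8 to 39.7 and 121 to 165 CPM in the other DMSO samples.

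**Figure D5:**
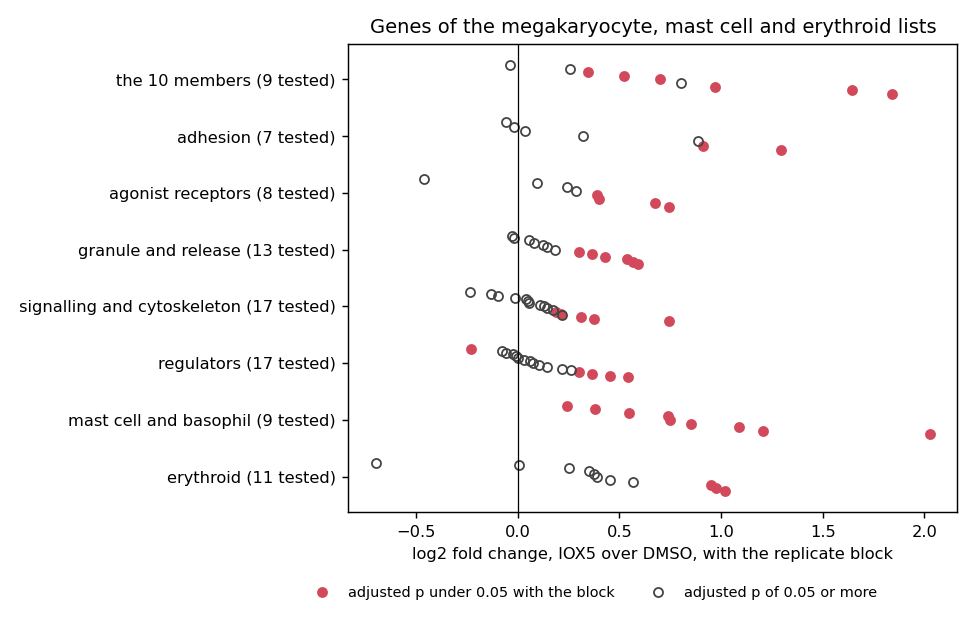
Log2 fold change with the replicate block for each tested gene of the 10 members, of 5 lists of other megakaryocyte and platelet genes, and of mast cell and basophil and erythroid markers, with genes called by edgeR filled. In the 5 other lists 21 of 62 genes are called higher and 1 lower, and all 9 mast cell and basophil genes tested are called higher.

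Other cell types that express *Gata1* or *Itga2b* were looked at with marker lists. The summed level of 12 mast cell and basophil markers was 174.6, 165.1, 671.8 and 579.2 CPM in DMSO replicates 1 to 4 and 228.6, 332.7, 1135 and 859.6 CPM in IOX5 replicates 1 to 4. It was thus highest in replicates 3 and 4 of both groups, as were *Ppbp*, *Pf4*, *Itga2b*, *Itgb3* and *Gata1*. All 9 of the 9 genes tested were called by replicate number and all 9 were called higher with IOX5 with the block, while 0 were called without it. *Mcpt8*, a basophil protease gene and the most abundant, had 46.0 to 187.7 CPM with DMSO and 55.0 to 260.3 CPM with IOX5. *Cpa3* had 18.0 to 95.1 CPM and 31.7 to 229.1 CPM (log2 fold change 1.14, SE 0.72), and the tryptase gene *Tpsb2* 0.0706 to 12.999 CPM and 0.561 to 53.9 CPM (2.02, SE 1.39). *Mcpt4* had 0 reads, and *Tpsab1* did not exceed 0.625 CPM. The part of these genes in the levels of the members was not tested.

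Erythroid markers were low. Their summed level over 19 genes was 13.7 to 50.1 CPM with DMSO and 18.7 to 70.7 CPM with IOX5. It was lowest in replicate 2 of both groups, as were *Ppbp*, *Itga2b*, *Gp9*, *Gata1* and *Nfe2*. It was highest in replicate 1 of both groups, as was *Nfe2*, while *Ppbp*, *Itga2b* and *Gata1* were highest in replicate 3 or 4. *Slc4a1*, *Alas2*, *Rhd* and *Epb42* were among 7 of the 19 genes under 1 CPM in every sample. *Hbb-bt*, the most abundant, had 1.94 to 14.1 CPM and 3.64 to 21.9 CPM, and with *Hbb-bs* (1.09 to 11.5 and 2.58 to 20.99 CPM) was called higher with the block and not without it. The globin pairs are near-identical copies whose reads the counting could split. The part of these genes in the levels of the members was not tested.

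The 6 eosinophil markers summed to 23.7 to 88.7 CPM with DMSO and to 37.3 to 50.3 CPM with IOX5 except in IOX5 replicate 2, where they reached 297.9 CPM, the sample with the highest *Vwf*. In IOX5 replicate 2 *Prg2* was highest of the IOX5 samples, at 171.7 CPM, while *Siglecf* was lowest, at 3.29 CPM. *Siglecf* (1.62 to 3.24 and 3.29 to 3.73 CPM) and *Prg2* were called by neither fit, and *Ccr3* and *Il5ra* stayed under 1 CPM. The 14 granulocyte markers, led by *Mpo* at 984 to 3380.4 CPM with DMSO and 1141 to 3915 CPM with IOX5, summed to 4908 to 7817 CPM and 5578 to 8804 CPM, with 10 of the 14 called higher with the block and 0 without it. Their sum was highest in replicates 3 and 4 of both groups, as were *Ppbp*, *Pf4*, *Itga2b*, *Itgb3* and *Gata1*. By replicate number 13 of the 14 were called. Their part in the levels of the members was not tested. *Ly6g* had 3.27 to 7.34 CPM and 8.44 to 11.1 CPM, and *Cebpe* 10.7 to 22.9 CPM and 14.3 to 35.6 CPM. Of the endothelial list, *Eng* (1.56 to 4.71 and 3.60 to 8.44 CPM) and *Pecam1* were among 3 genes called higher with the block. Of the macrophage list, 4 genes were called higher and 1 lower with the block, *Adgre1* and *Mrc1* among the first, together with *Ly6c2*, the most abundant gene (264 to 370 and 359 to 535 CPM). Of the progenitor list, 7 of 10 tested genes were called higher with the block, *Myb* and *Ly6a* (14.2 to 21.4 and 20.02 to 33.8 CPM) among them. B, T and NK cell markers were at or near 0, with 0 of 8 tested and a summed level of at most 0.40 CPM, led by *Cd79a*.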

How the data were processed

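Poly(A)-selected, directional libraries of 8 samples (4 DMSO, 4 IOX5) were sequenced as single-end reads. Per the submitters' processing notes and the methods, the authors used cutadapt 1.18, HISAT2 2.2.1 (GRCm38) and HTSeq 2.0.1. The deposited files hold raw counts per Ensembl gene, library by library. The annotation release and strand option are not given in the sources used here. The summary lines of HTSeq, for reads not assigned to 1 gene (20.6% to 22.6% of a library), were left out. They include reads that fit more than 1 gene, 1.43% to 1.54% of a library.

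Of 54838 identifiers, 54809 were matched to GENCODE M21. The members and the gene lists were chosen with earlier results of these data known. The named genes were all 10 members, in each other list the called genes or, if none, the 2 with the smallest adjusted p, and the most abundant gene, and the gene most alike to each member. With R 4.3.3 and edgeR 4.0.16, 12405 genes passed filterByExpr, TMM factors ran from 0.988 to 1.03, and quasi-likelihood tests with Benjamini-Hochberg adjustment were fitted without a block. log2 CPM used a prior count of 2. The replicate numbers were taken to pair the samples, because deviations from the group means correlated at 0.636 to 0.758 in the 4 same-numbered pairs. The correlation did not separate numbers 3 and 4, since DMSO 4 with IOX5 3 had 0.685 and DMSO 3 with IOX5 4 had 0.617. The other pairs of different numbers had at most 0.212. What a number stands for is not given. Alternatives were the replicate block, DESeq2 1.42.0, RLE and upper-quartile factors, no filter, a minimum of 10 counts in every sample, and each sample left out. The closest libraries, DMSO replicates 3 and 4, differed beyond sampling noise (chi-square per degree of freedom 2.18). They were far closer to each other than any other pair, which had from 9.345 (IOX5 replicates 3 and 4) to 50.21 (DMSO replicate 3 and IOX5 replicate 2). Whether DMSO replicates 3 and 4 are independent samples is not given. Promoter windows came from RefSeq (GRCm38.p6). Figures were drawn with matplotlib 3.10.9.

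The steps were tested on simulated counts of 12405 genes with 100 genes changed by a log2 fold change of 1 and 100 by 0.5. Without the block edgeR recovered 57 and 18 of these with 0 false calls, with it 91 and 72 with 13 false calls. DESeq2 recovered 69 and 41 with 0 false calls. The counts were drawn with the replicate-number levels and the spread of the fit with the block. They favour that fit by design and cannot decide between the fits. The test of the number was run on a second simulation, with the changes placed in 1 number and no other differences between numbers. It recovered 83 and 55 with 5 false calls. A few results of the naming rule are not reported here.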

Additional observations from a re-analysis of the deposited data

Results flagged for a closer look

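In groups of 4 samples, the highest or lowest sample was compared with the nearest other one, and 6 of 86 groups examined had a gap larger than Dixon's 95% critical value. Chance gives about 1 group in 20. All 6 were replicate 2 of a group. *Gp9* was lowest in IOX5 replicate 2, at 0.710 CPM against 1.39 to 1.52 CPM in the other IOX5 samples, on 8 reads. *Erg* was lowest in replicate 2 of both groups, at 30.9 CPM against 51.8 to 52.9 CPM with DMSO and at 40.7 CPM against 70.9 to 74.2 CPM with IOX5. *Pecam1* stood at 82.6 CPM in DMSO replicate 2, against 161.2 to 162.9 CPM. The eosinophil granule gene *Prg2* was high in IOX5 replicate 2, at 171.7 CPM against 17.0 to 22.5 CPM, and *Siglecf* low, at 3.29 CPM against 3.67 to 3.73 CPM.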

How the results depend on the processing

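Reading the differences is limited by 4 samples a group and by low counts in *Ppbp*, *Pf4* and *Gp9*. The replicate block raised the genes called higher from 96 to 1394 and lower from 155 to 1170, the members called higher from 1 to 6, and the other megakaryocyte genes from 0 to 21 higher and 1 lower. With the block and 1 replicate number left out, fits chosen after seeing the data, the calls were 994, 1119, 642 and 1355 higher and 650, 1016, 403 and 1058 lower without numbers 1, 2, 3 and 4. In the same order 6, 6, 4 and 5 members and 16, 18, 9 and 21 other genes were called higher, and 0, 2, 0 and 1 other genes lower. The median log2 fold change of the members was 0.78 without number 4. DESeq2 called 433 genes higher and 544 lower, 2 members (*Vwf* and *Ppbp*) and 5 other genes. RLE and upper-quartile factors kept the 1 member called, *Vwf*. With no filter 79 genes were called higher and 73 lower. A minimum of 10 counts in every sample left 7 members, with a median log2 fold change of 0.53 and *Vwf* called.

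With 1 sample left out, between 0 and 130 genes were called higher and between 0 and 333 lower, 0 or 1 member and 0 or 1 other gene. The calls fell to 0 when replicate 3 of either group or DMSO replicate 4 was removed, for causes not tested. The median of the members ran from 0.38 to 0.90, and that of the other genes from 0.11 to 0.18. The log2 fold change of *Fli1* ran from -0.124 to 0.0350, that of *Itgb3* from -0.0668 without IOX5 replicate 3 to 0.606, that of *Lmo2* from -0.0840 to 0.0512, that of *Flna* from -0.0970 without IOX5 replicate 2 to 0.159, and that of *Prg2* from -0.467 without IOX5 replicate 2 to 1.42. With the block and without number 4 *Fli1* had 0.0193, and with the block and without number 2 *Flna* had -0.0715 and *Prg2* -0.0425. The count of members called by replicate number ran from 4 to 7 over all alternatives.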
